A study of Mus musculus with 6 samples.

Results

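Translation initiation and elongation factors are the proteins that load ribosomes onto mRNA and move them along it. Their genes were followed here in C2C12 myotubes, the multinucleated muscle cells that the mouse C2C12 myoblast line forms in low-serum medium, after exposure to kaempferol, a plant flavonol. The members were chosen by a rule on names that uses no measured value, though with earlier results of these data known. They are all protein-coding genes of the deposited table whose symbols begin with Eif1 to Eif6 or with Eef1 or Eef2, leaving out the eIF4E inhibitor gene Eif4ebp1 and the eIF2 kinase genes (Eif2ak), which the same rule excludes. The rule gave 63 genes of 54924 in the table, and 60 of them had enough reads to be tested, among 14558 genes tested in all.

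Poly(A) RNA was sequenced from 3 libraries of myotubes given 25 μM kaempferol for 24 h and from 3 libraries of control myotubes without kaempferol. All cells had been kept for 6 days in differentiation medium and, per the protocol, were then reseeded overnight before treatment. That protocol is worded alike for every sample, so the title of each sample decided its group. For the kaempferol libraries the line is written C2C13 in the labels, and 1 tag of all libraries reads dedifferentiation, but the protocol describes C2C12 cells and all titles call them myotubes. Whether replicate libraries were grown as separate cultures is not given, and each p-value then measures only the spread between libraries, which may be technical.

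The libraries held 16575790 to 18625272 counts, and the first principal component, with 46.8% of the variance, separated the 2 groups. Myotube markers were present at similar summed levels (943 to 1024 CPM, counts scaled to library size, with kaempferol, 948 to 1054 CPM in control, for 8 genes), of which Myog and Acta1 passed the test as higher and Des as lower. Des supplied most of that sum, at 10129 to 11550 counts per library. Ckm had 61 to 85 counts and Mef2c 19 to 47, so the sum says little about these sparse markers. Markers of dividing or undifferentiated myoblasts were abundant in both groups and lower with kaempferol, at 1202 to 1296 CPM with kaempferol against 1641 to 1767 CPM in control over 6 genes, 4 of which passed the test as lower. The summed fibroblast markers were also lower, at 709 to 743 CPM with kaempferol against 1064 to 1177 CPM in control, with Col1a1 lower and Pdgfra higher. Col1a1, at 11467 to 19679 counts per library, supplied nearly all of this sum, and the third gene, Thy1, had at most 4 counts. The lower sum is thus that of 1 gene and does not describe a cell type. Leukocyte, endothelial and adipocyte markers summed to at most 2.23 CPM per list in any library, and Cd3e and Adipoq had a count of 0 in all 6. In bulk RNA, fewer cells of a type and less RNA per cell cannot be told apart, and the part of these marker differences in the results that follow was not tested.

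Initiation proceeds in steps that give these genes their names. eIF2 brings the initiator tRNA to the small ribosomal subunit, eIF3, eIF1 and eIF1A prepare that subunit for scanning, and eIF4E, eIF4G and the helicase eIF4A recruit the mRNA through its cap, until eIF5 and eIF5B let the large subunit join. During elongation eEF1A delivers aminoacyl-tRNA, eEF2 moves the ribosome by a codon and eIF5A, the protein known to carry the modified lysine hypusine, helps at sequences where peptide bonds form slowly. Skeletal muscle is known for a change of isoform in which eEF1A2 takes the place of eEF1A1 as fibres mature.

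With kaempferol, the mRNAs of translation factors moved little, and those that passed the test were nearly all lower. Of the 60 tested, 10 were downregulated and 1, the eEF2 kinase gene Eef2k, was upregulated (kaempferol vs. control, edgeR's quasi-likelihood test, adjusted p under 0.05, Benjamini-Hochberg over all 14558 genes). Those 11 genes are 18.3% of the members, against 24.0% of all genes tested. By direction, 1.67% of the members passed as higher against 11.3% of all genes, and 16.7% passed as lower against 12.6% of all genes, so the share called lower was close to the background and the share called higher was below it. Among genes with a mean of at least 100 CPM, 27.8% of 36 members passed, all lower, against 43.0% of 2393 genes, of which 14.4% were higher and 28.6% lower. The values of the groups did not overlap for 19 members (31.7%), 6 of them higher and 13 lower, against 38.2% of all genes tested, 18.6% higher and 19.6% lower. Counts of members by role below are to be read against these shares over all genes.

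The changes of translation factor genes were small in size, which is given here as a description without a test. The median log2 fold change was 0.005 over the members and -0.0005 over all genes tested. The median absolute log2 fold change was 0.062 over the members, 0.152 over all genes and 0.063 over the 80 cytosolic ribosomal protein genes. Among genes with a mean of at least 100 CPM it was 0.048 over 36 members and 0.115 over 2393 genes. The central part of the distribution, between the lower and upper quartile, ran from -0.10 to 0.04 for the members and from -0.14 to 0.16 for all genes. A change of at least 0.5 on the log2 scale was reached by 1 of 60 members, the sparsely counted Eif4ebp3, which did not pass the test, and by 1585 of 14558 genes.

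**Figure D1:**
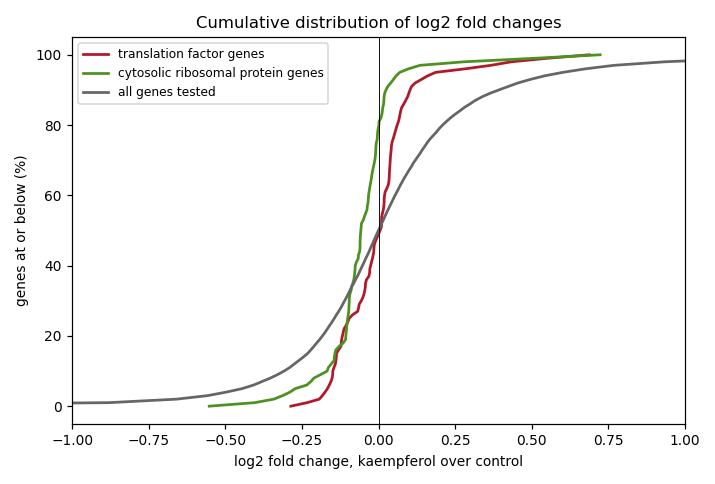
Cumulative share of genes (%) at or below each log2 fold change, kaempferol over control, for the 60 translation factor genes, the 80 cytosolic ribosomal protein genes and all 14558 genes tested. The curve of the translation factor genes is steep around 0, with quartiles of -0.10 and 0.04, where all genes have -0.14 and 0.16 and some reach past the ends of the axis.

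The number of calls depended on single libraries and on scaling. Against 10 with all 6 libraries, the downregulated members numbered 3 without kaempferol replicate 2, 5 without kaempferol replicate 3, 2 without control replicate 1 and 5 without control replicate 2. Eef2k no longer passed without any of these 4 libraries or without kaempferol replicate 1. With upper-quartile in place of TMM factors 3 members were upregulated (Eef2k, Eef1g and Eif4ebp2) and 4 downregulated (Eif5a, Eif4a3, Eif2s3x and Eif3b), and over all genes the split was 1966 higher and 1424 lower, against 1647 higher and 1840 lower with TMM. DESeq2 called the same 10 members lower and none higher. At an unadjusted p under 0.05, edgeR had 3 members higher and 14 lower, against 16.8% of all genes higher and 18.4% lower, and DESeq2 had 3 members higher and 12 lower.

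Eif5a (chr11:69916714-69921958 in mm10), which encodes the hypusine-bearing factor, fell most. It had 977, 890.4 and 849 CPM with kaempferol, against 1095, 1088 and 1131 CPM in control, so the groups did not overlap and the highest treated library lay below the lowest control. The means were 906 ± 65.3 CPM with kaempferol and 1105 ± 23.0 CPM in control (SD, n = 3 each, log2 fold change -0.29 ± 0.0488 SE, adjusted p = 0.000311 by edgeR). The call was kept in all 16 alternative analyses, with an adjusted p of at most 0.0038, and Eif5a was the 1 member that passed at an adjusted p under 0.01. Its paralog Eif5a2, which encodes a second form of the same factor, was far less abundant, at 23.7, 22.0 and 26.2 CPM with kaempferol and 26.0, 22.8 and 22.7 CPM in control, and its values overlapped (log2 fold change 0.01).

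Hypusine is made on eIF5A by a pair of enzymes, and the gene of the first of them, deoxyhypusine synthase (Dhps), was also downregulated. It had 58.4, 62.2 and 57.9 CPM with kaempferol against 66.2, 75.2 and 80.9 CPM in control, with no overlap (log2 fold change -0.32 ± 0.0676, adjusted p = 0.00225 by edgeR). Dhps was the 1 gene of 15 tested that passed in a list of enzymes and helpers that modify or assist elongation factors, whose median log2 fold change was 0.03. Of all genes tested 24.0% passed, so this list was not called more often than the background. Dohh, the gene of the second enzyme, named after its values were seen, lay the other way without passing, at 21.4, 21.6 and 21.5 CPM with kaempferol against 19.0, 18.8 and 20.7 CPM in control (0.14 ± 0.0821, adjusted p = 0.242 by edgeR).

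The promoters of 4 of these genes are shown because the results turn on them: Eif5a, with the largest called decrease, the main helicase gene Eif4a1, the translocase gene Eef2 and the upregulated Eef2k. Each runs from 250 bases before to 30 bases after the start of the gene, 5′ to 3′ on the strand of the gene, taken from RefSeq (GRCm38.p6, the assembly also called mm10). They lie at chr11:69921929-69922208 (Eif5a, minus strand), chr11:69672394-69672673 (Eif4a1, minus strand), chr10:81176381-81176660 (Eef2, plus strand) and chr7:120842581-120842860 (Eef2k, plus strand). Capitals mark matches to 4 motifs searched on both strands: the E-box CACGTG, the antioxidant response element TGACNNNGC, the cAMP response element (CRE) TGACGTCA and the C/EBP-ATF response element (CARE) TGATGNAAT, where N is any base.
Eif5a: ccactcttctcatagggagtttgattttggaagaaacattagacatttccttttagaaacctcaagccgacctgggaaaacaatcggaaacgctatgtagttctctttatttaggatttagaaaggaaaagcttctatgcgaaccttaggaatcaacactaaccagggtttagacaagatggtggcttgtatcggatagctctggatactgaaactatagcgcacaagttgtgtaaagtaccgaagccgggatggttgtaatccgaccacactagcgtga
Eif4a1: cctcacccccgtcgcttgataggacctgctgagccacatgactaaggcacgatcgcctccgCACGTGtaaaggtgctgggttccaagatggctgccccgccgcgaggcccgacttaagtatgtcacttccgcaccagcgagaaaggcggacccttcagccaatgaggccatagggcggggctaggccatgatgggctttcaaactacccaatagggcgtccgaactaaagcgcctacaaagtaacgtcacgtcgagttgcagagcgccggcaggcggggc
Eef2: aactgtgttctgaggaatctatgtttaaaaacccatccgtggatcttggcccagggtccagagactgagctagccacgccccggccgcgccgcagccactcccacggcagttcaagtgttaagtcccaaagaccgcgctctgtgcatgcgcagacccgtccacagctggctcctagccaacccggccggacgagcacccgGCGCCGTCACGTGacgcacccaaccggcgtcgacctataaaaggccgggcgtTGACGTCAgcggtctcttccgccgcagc
Eef2k: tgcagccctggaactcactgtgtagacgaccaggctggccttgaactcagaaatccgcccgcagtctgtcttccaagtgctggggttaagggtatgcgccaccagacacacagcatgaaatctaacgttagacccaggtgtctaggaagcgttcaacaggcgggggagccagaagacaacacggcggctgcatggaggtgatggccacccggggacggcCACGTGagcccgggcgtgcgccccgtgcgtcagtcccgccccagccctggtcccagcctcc
In Eif4a1 the capitals are an E-box that begins 189 bases before the start, and in Eef2k an E-box that begins 31 bases before it. In Eef2 an E-box beginning 43 bases before the start overlaps an antioxidant response element beginning 50 bases before it, and a CRE begins at base 3 of the transcribed part. The Eif5a window held none of the 4 motifs.

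A promoter of 300 bases, 50 of them after the start, was found for 46 of the 60 tested members. An E-box was in 11 of these 46 (23.9%), against 10.2% of the promoters of 9587 protein-coding genes tested. The antioxidant response element was in 21.7% of the members and 14.7% of the genes tested, the CRE in 2.17% and 3.39%, and the CARE in 0 of 46 and 0.417%. By response, the E-box was in 4 of 10 downregulated members, in the upregulated Eef2k and in 6 of 35 members that did not pass. The RefSeq start nearest the deposited 5′ end was used without a distance limit. It lay 4414 bases away for Eif4g1, 1 of those 4, and 7427 bases away for Eef1a1. These are matches of letters and carry no test.

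**Figure D2:**
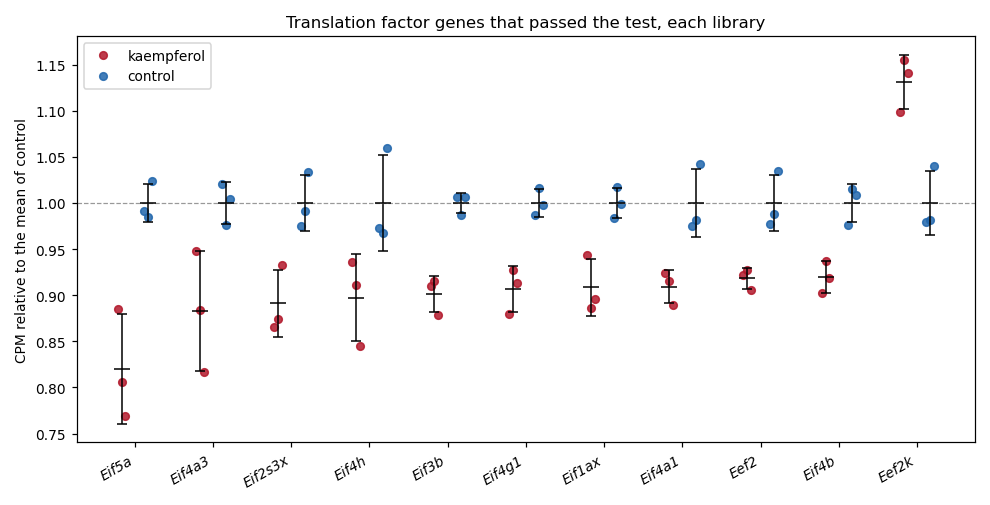
CPM of each library divided by the mean of the 3 control libraries, for the 11 translation factor genes that passed the test, ordered by log2 fold change. Points are libraries, bars are mean ± SD (n = 3), kaempferol is on the left of each pair. In all 11 genes no kaempferol library overlaps a control library, and Eif5a lies lowest and Eef2k is the one gene above control.

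Among the genes that act at the cap, 3 of the helicase and its helpers were downregulated. eIF4A unwinds the leader of the mRNA, eIF4B and eIF4H stimulate it and eIF4G is the scaffold that holds it beside the cap-binding protein. Eif4a1 (chr11:69666936-69672423), the main helicase gene, had 853, 846 and 821 CPM with kaempferol against 901, 907 and 963 CPM in control, without overlap (log2 fold change -0.14 ± 0.0425, adjusted p = 0.0256 by edgeR). Eif4b (chr15:102073773-102097173) had 613, 637 and 624 CPM with kaempferol against 663, 689.8 and 685 CPM in control (-0.12 ± 0.0414, adjusted p = 0.0410 by edgeR). Eif4h (chr5:134619721-134639490) had 424, 413 and 383 CPM with kaempferol against 441, 438 and 480.1 CPM in control (-0.16 ± 0.0501, adjusted p = 0.0304 by edgeR). All 3 genes had lower values in every treated library than in any control library, and their fitted changes were -9.07%, -8.06% and -10.3% (Eif4a1, Eif4b, Eif4h).

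Eif4a2, the second cytosolic helicase gene, did not pass. It had 200.1, 209.0 and 203.2 CPM with kaempferol and 209.5, 218.5 and 206.9 CPM in control, and the groups overlapped (log2 fold change -0.05, 95% interval -0.15 to 0.04). Its share of the summed length-corrected level of the Eif4a1 and Eif4a2 pair was 16.5 ± 0.42% with kaempferol and 15.7 ± 0.77% in control (SD, n = 3 each, exact permutation p = 0.2, two-sided, where 3 against 3 libraries can give no less than 0.1). Of these 4 genes 3 passed as lower, where 12.6% of all genes tested did and 28.6% of those with at least 100 CPM. The grouping was made with earlier results known and has no test.

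The scaffold gene Eif4g1 (chr16:20668313-20692884) had 732, 772 and 760.5 CPM with kaempferol against 821, 846 and 830 CPM in control, again with no overlap (log2 fold change -0.14 ± 0.0412, adjusted p = 0.0185 by edgeR). Its relatives Eif4g2, whose product is a scaffold without the eIF4E-binding site, and Eif4g3 had log2 fold changes of -0.03 and -0.04 and did not pass. Eif4e, the cap-binding protein gene, had 146, 148 and 152 CPM with kaempferol against 164, 161 and 157 CPM in control. These values did not overlap either, but the difference missed the threshold after adjustment (log2 fold change -0.11, 95% interval -0.21 to -0.02, adjusted p = 0.0760 by edgeR). Eif4e2 and Eif4e3, which encode divergent cap-binding relatives, had log2 fold changes of 0.04 and 0.07, and no eIF4E family gene passed (1 lower at an unadjusted p under 0.05 by edgeR, 0 called by DESeq2).

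The calls of this module were not stable to the loss of a library or to scaling. With upper-quartile factors none of Eif4a1, Eif4b, Eif4h and Eif4g1 passed (adjusted p = 0.0742, 0.116, 0.0752 and 0.0553 by edgeR). Without control replicate 1, the calls of Eif4a1 (adjusted p = 0.0521), Eif4b (0.0772), Eif4h (0.0594) and Eif4g1 (0.0554) were all lost. Eif4b was lost without any 1 of the 6 libraries (largest adjusted p = 0.157, without control replicate 2). Eif4a1 kept its call only without kaempferol replicate 1 (largest adjusted p = 0.0760, without kaempferol replicate 2), and Eif4h only without kaempferol replicate 1 or control replicate 2 (largest adjusted p = 0.122, without kaempferol replicate 3). Eif4g1 was lost without kaempferol replicate 1, control replicate 1 or control replicate 2 (largest adjusted p = 0.0876). All log2 fold changes of these 4 genes stayed negative, between -0.19 and -0.09, over the 16 alternatives.

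Eif4a3 (chr11:119288363-119300089) belongs by name to the helicases but works in the exon junction complex, which marks spliced mRNA. It had 142, 133 and 123 CPM with kaempferol against 153, 146 and 151 CPM in control, and the groups did not overlap (log2 fold change -0.18 ± 0.0530, adjusted p = 0.0196 by edgeR). The call was lost without kaempferol replicate 2, kaempferol replicate 3 or control replicate 1 (adjusted p = 0.0586, 0.104 and 0.103).

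The proteins that bind eIF4E and keep it from eIF4G are encoded by Eif4ebp1, which the rule leaves out, and by Eif4ebp2 and Eif4ebp3. Eif4ebp2 had 185, 178 and 178 CPM with kaempferol against 174, 164 and 166 CPM in control, higher in every treated library but not past the threshold (log2 fold change 0.10, 95% interval 0.01 to 0.20, adjusted p = 0.119 by edgeR). Eif4ebp1, named here after its values were seen, had 121.5, 117.2 and 110.3 CPM with kaempferol against 99.7, 102.9 and 105.8 CPM in control and passed (0.18 ± 0.0493, adjusted p = 0.0135 by edgeR). The share of Eif4ebp2 in the pair was 37.0 ± 0.80% with kaempferol and 38.3 ± 1.39% in control, overlapping (exact permutation p = 0.3). Eif4ebp3 was near the limit of detection, at 0.659 to 1.03 CPM with kaempferol and 0.445 to 0.542 CPM in control, with an interval of -0.16 to 1.54 on the log2 scale. The gene of the transporter 4E-T, Eif4enif1, had a log2 fold change of -0.12 (adjusted p = 0.110 by edgeR).

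The genes for delivery of the initiator tRNA showed 1 change among the subunits of eIF2. Eif2s3x (chrX:94188707-94212862), the X-linked gene of the GTP-binding gamma subunit, had 242, 244 and 261 CPM with kaempferol against 273, 277 and 289 CPM in control, without overlap (log2 fold change -0.17 ± 0.0466, adjusted p = 0.0148 by edgeR). The call was lost without kaempferol replicate 1 or kaempferol replicate 2 (adjusted p = 0.0619 and 0.0668). Eif2s1, which encodes the alpha subunit that stress kinases phosphorylate, had 158, 163 and 158 CPM with kaempferol and 152, 163 and 158 CPM in control (0.02, 95% interval -0.08 to 0.11), and Eif2s2, for the beta subunit, had a log2 fold change of -0.02, and neither passed. Eif2s3y, the Y-linked counterpart, had a count of 0 in all 6 libraries, which allows up to 0.161 to 0.181 CPM (3 counts of a library, counting error only).

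eIF2B recharges eIF2 with GTP, and none of its 5 subunit genes passed by edgeR or DESeq2 (1, Eif2b4, was lower at an unadjusted p under 0.05 by edgeR). Eif2b5, for the catalytic subunit, had 88.1, 83.3 and 86.0 CPM with kaempferol and 84.6, 82.3 and 83.9 CPM in control, and its interval ran from -0.07 to 0.14. The others had log2 fold changes of 0.09 (Eif2b1), -0.02 (Eif2b2), 0.14 (Eif2b3) and -0.15 (Eif2b4), so their signs were mixed. Eif2a and Eif2d, whose products can deliver tRNA without eIF2, had log2 fold changes of -0.02 and 0.05 and did not pass.

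Of the scanning factors, Eif1ax (chrX:159372178-159389928), the X-linked gene of eIF1A, was downregulated. It had 162, 152 and 154 CPM with kaempferol against 169, 175 and 172 CPM in control, with no overlap (log2 fold change -0.14 ± 0.0454, adjusted p = 0.0345 by edgeR). It kept its call only without kaempferol replicate 1 among the 6 libraries left out in turn (largest adjusted p = 0.141, without control replicate 2). Eif1a, an autosomal gene for the same factor, had 127.3 to 135.8 CPM with kaempferol and 124.7 to 125.9 CPM in control, and did not pass (0.05, 95% interval -0.04 to 0.15). Eif1, which keeps start codon choice strict, had a log2 fold change of 0.04 and did not pass.

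Eif1b, the paralog of Eif1, had the second most negative fold change of the members but few reads. It had 32.2, 33.4 and 29.3 CPM with kaempferol against 37.6, 38.0 and 33.2 CPM in control, which overlapped by a small margin (log2 fold change -0.20 ± 0.0771, adjusted p = 0.0744 by edgeR). Its share of the Eif1 and Eif1b pair was 13.5 ± 0.51% with kaempferol against 15.5 ± 0.77% in control, and here the groups did not overlap (exact permutation p = 0.1, the smallest possible).

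Of the 14 genes of eIF3, the multi-subunit scaffold on the small ribosomal subunit, 1 passed, where 24.0% of all genes tested did. It was Eif3b (chr5:140419328-140443360), which encodes a core subunit, with 342, 344 and 330.4 CPM with kaempferol against 379, 371 and 378 CPM in control (log2 fold change -0.15 ± 0.0424, adjusted p = 0.0156 by edgeR). No treated library reached a control library, and the call was lost without control replicate 1 (adjusted p = 0.0780) and in no other of the 6 omissions. The other 13 had log2 fold changes between -0.07 (Eif3j1) and 0.07 (Eif3e), with both signs, and none of these 13 passed (0 at an unadjusted p under 0.05 by edgeR, 0 by DESeq2). Eif3j1 and Eif3j2 are 99.4% identical over 2379 bases, so reads may be divided between them by the counting.

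The factors of subunit joining gave no call. Eif6, whose product keeps free large subunits from joining too early, had 116, 119 and 100.5 CPM with kaempferol and 114, 113 and 123 CPM in control (log2 fold change -0.06, 95% interval -0.19 to 0.06). Eif5 and Eif5b, which encode the activator of eIF2's GTPase and the GTPase of the joining step, had log2 fold changes of 0.01 and 0.00, and 0 of the 3 genes passed by edgeR or DESeq2, and 0 at an unadjusted p under 0.05 by edgeR. Eif1ad, named like a scanning factor but not assigned to a step here, had a log2 fold change of 0.10 and did not pass.

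**Figure D3:**
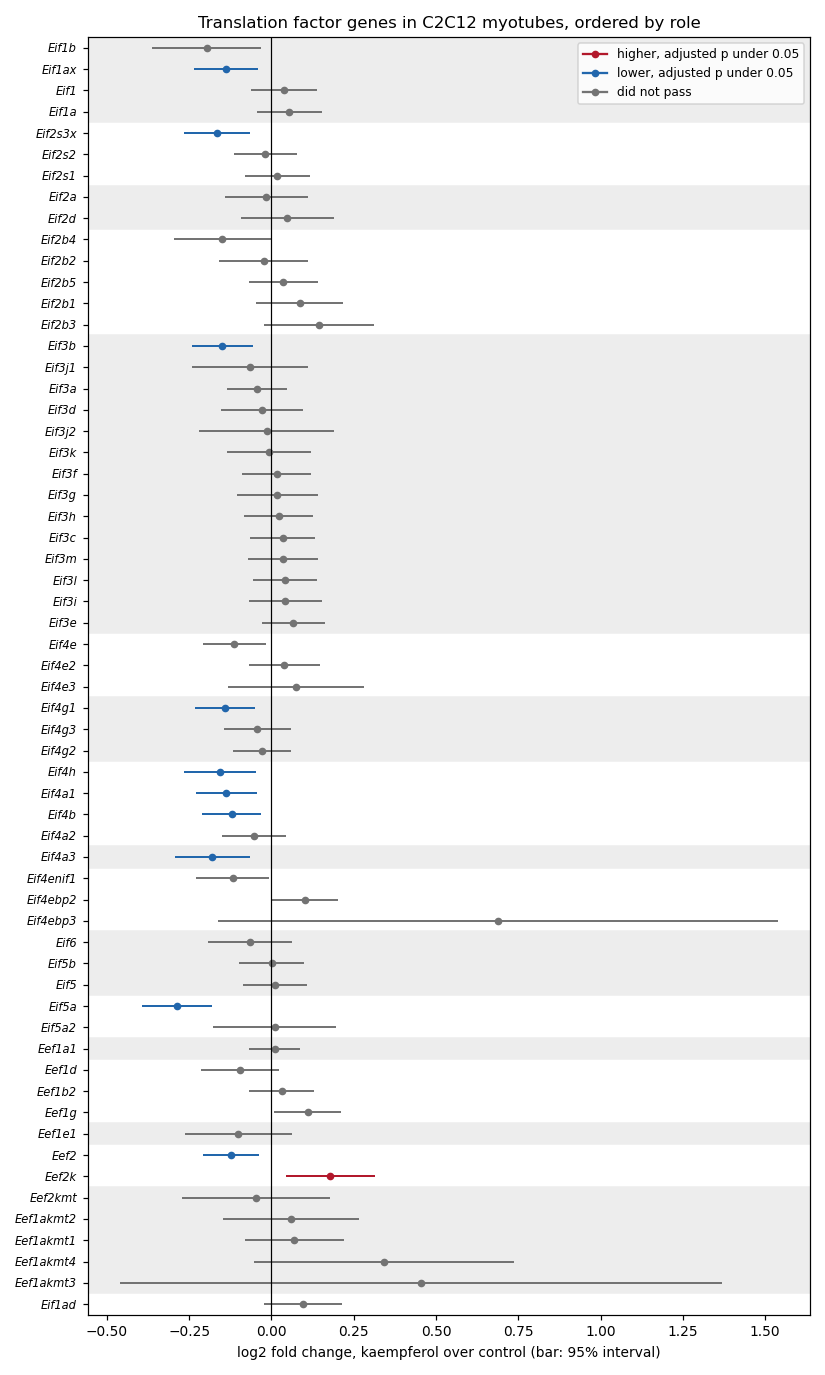
log2 fold change (kaempferol over control) with its 95% interval for the 60 tested translation factor genes, in bands by role from scanning factors at the top to elongation factor methyltransferases near the bottom. Blue genes passed as lower (10), the red gene passed as higher (Eef2k) and grey genes did not pass. Most intervals are short and lie near 0, and long ones belong to genes with few reads.

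In elongation, the gene of the translocase fell and that of its inhibitory kinase rose. Eef2 (chr10:81176631-81182498) had 3114, 3133 and 3061 CPM with kaempferol against 3301, 3340 and 3496 CPM in control (log2 fold change -0.12 ± 0.0383, adjusted p = 0.0262 by edgeR), and every treated library was below every control library. Eef2k (chr7:120842831-120907450), whose product phosphorylates eEF2 and slows elongation, had 47.2, 49.6 and 49.0 CPM with kaempferol against 42.1, 42.1 and 44.7 CPM in control, with no overlap (0.18 ± 0.0628, adjusted p = 0.0471 by edgeR). Both calls sat near the threshold. Eef2 was lost without kaempferol replicate 1, kaempferol replicate 2, control replicate 1 or control replicate 2 (largest adjusted p = 0.0879). It was also lost with the likelihood ratio test (adjusted p = 0.0691), upper-quartile factors (0.0857) and the replicate number as a block (0.0971). When a library was left out, Eef2k remained only without control replicate 3 (largest adjusted p = 0.133, without kaempferol replicate 2). DESeq2 gave Eef2k an adjusted p of 0.0723, and edgeR gave it 0.0904 without a filter and 0.0950 with the block. An antisense gene that overlaps 101 bases of Eef2k had at most 18 counts in any library.

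Eef1a1, which carries aminoacyl-tRNA to the ribosome, was the most abundant member and did not pass. It had 7625, 7774 and 7462 CPM with kaempferol and 7582, 7425 and 7707 CPM in control, and the 95% interval of its log2 fold change ran from -0.07 to 0.08 around 0.01. Eef1a2, the muscle and neuron isoform, had counts of 1, 0 and 0 with kaempferol and 1, 0 and 0 in control, at or under the floor of 3 counts, so the isoform that takes over in mature muscle was not detectable beyond single reads in either group. Eif4e1b, an eIF4E relative known from oocytes, had counts of 0, 0 and 0 with kaempferol and 1, 0 and 0 in control. Together with Eif2s3y these are the 3 members that were not tested.

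The eEF1B complex reloads eEF1A with GTP. Its genes Eef1b2, Eef1d and Eef1g had log2 fold changes of 0.03, -0.09 and 0.11, and none passed with all libraries (1 higher at an unadjusted p under 0.05 by edgeR, 0 called by DESeq2). Eef1g had 345.0, 338.8 and 313.7 CPM with kaempferol against 303.1, 315.6 and 305.1 CPM in control, values that overlapped narrowly (adjusted p = 0.0994 by edgeR). Eef1e1, a part of the multisynthetase complex despite its name, had a log2 fold change of -0.10 and did not pass, and the 5 genes of methyltransferases that modify eEF1A or eEF2 had 0 calls by edgeR or DESeq2 and 0 at an unadjusted p under 0.05 by edgeR, with log2 fold changes of -0.05 to 0.45, the largest of them from Eef1akmt3 with 0.460 to 1.62 CPM with kaempferol and 0.542 to 0.925 CPM in control.

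Most members that did not pass were measured closely. For the 43 members that did not pass and had at least 20 CPM in control, the end of the 95% interval farther from 0 had a median size of 0.149 on the log2 scale, and it was under 0.25 for 39 of them and under 0.5 for all 43, with the largest, 0.36, in Eif1b. For these genes a change larger than such a bound is outside the interval. For Eif4ebp3, Eef1akmt3 and Eef1akmt4, with 0.445 to 6.43 CPM, the intervals were wider. They reached up to 1.54, 1.37 and 0.73, so increases of up to these sizes are not outside them.

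Levels are compared between genes as CPM per kilobase of the gene length in the deposited table. Eef1a1 stood first at 3057 ± 62.7 CPM per kb with kaempferol and 3037 ± 56.7 in control (SD, n = 3, as for the next values). Eef2 followed at 933 ± 11.3 with kaempferol and 1016 ± 31.0 in control, and Eif5a at 381 ± 27.5 with kaempferol and 465 ± 9.69 in control. Eef1a1 took 42.4 ± 0.41% of the summed level of the members with kaempferol against 41.0 ± 0.29% in control, and Eef2 took 12.96 ± 0.11% with kaempferol against 13.7 ± 0.22% in control. After these came Eif4a1 (194 ± 3.87 with kaempferol, 213 ± 7.92 in control) and Eif3h (195 ± 10.7 with kaempferol, 192 ± 5.85 in control), whose levels with kaempferol differed by less than their SD. Within eIF3, control levels ran from 7.40 CPM per kb (Eif3j1) to 192 (Eif3h).

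**Figure D4:**
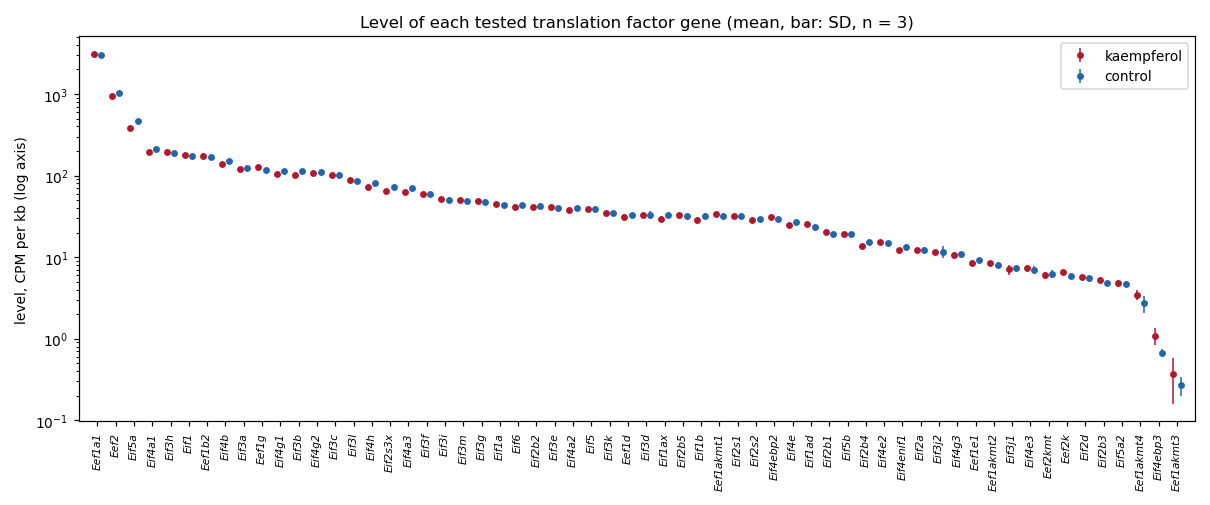
Level of the 60 tested translation factor genes in CPM per kb on a log axis, as mean and SD of 3 libraries, with kaempferol left of control for each gene and genes in order of their control level. The levels run from 3037 for Eef1a1 to 0.269 for Eef1akmt3 in control, and the points of the groups nearly coincide across this range.

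Summed over all 63 members, the genes took 22960 ± 352 CPM with kaempferol against 23722 ± 324 CPM in control, and without Eef1a1 and Eef2 they took 12237 ± 197 CPM with kaempferol against 12772 ± 118 CPM in control. All 3 treated sums were below all 3 control sums in both cases with these TMM-scaled values. As unscaled shares of library counts the groups overlapped, at 2.28 to 2.34% with kaempferol and 2.33 to 2.37% in control, and without Eef1a1 and Eef2 at 1.215 to 1.254% with kaempferol and 1.252 to 1.268% in control. Eif5a2 took 1.24 ± 0.17% of the Eif5a pair with kaempferol against 1.01 ± 0.09% in control, and Eif4g3 took 9.37 ± 0.31% of the Eif4g1 and Eif4g3 pair with kaempferol against 8.80 ± 0.27% in control, without overlap in either (exact permutation p = 0.1 each). Over the 6 pairs examined no p could fall below 0.1, so none can pass a threshold of 0.05, adjusted or not.

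Near-identical copies limit a few of these values. A processed pseudogene or other copy with at least 95% identity exists for 23 members, and 11 members have a pseudogene with at least 10 counts in some library, 16 such pseudogenes in all. Eif4a-ps4, 99.9% identical to Eif4a1 over 1218 bases, held 16.8 to 17.8% of the summed counts of the pair, and Gm4366 held 29.2 to 30.4% of its sum with Eef1g. Adding such pseudogenes to their parent genes, an analysis chosen after the data were seen, left the same 11 calls, with a log2 fold change of -0.13 for Eif4a1 and -0.16 for Eif2s3x.

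Genes that control initiation from outside the rule included both directions. Of 28 tested, among them eIF2 kinases, eIF4E-binding and poly(A)-binding proteins and the S6 kinases, 6 were upregulated and 4 downregulated, 10 of 28 against 24.0% of all genes tested, with a median log2 fold change of 0.06. Impact, whose product restrains the amino acid sensor GCN2, had 119, 117 and 121 CPM with kaempferol against 84.5, 87.8 and 85.7 CPM in control (0.47 ± 0.0458, adjusted p = 6.75e-07 by edgeR), without overlap. Eif2ak4, the gene of GCN2 itself, had 42.3, 49.5 and 49.6 CPM with kaempferol against 40.4, 39.5 and 36.6 CPM in control (0.28 ± 0.0741, adjusted p = 0.0106 by edgeR). Both genes of this known pair of sensor and inhibitor were thus higher. Pdcd4, which encodes a protein that blocks eIF4A, had 22.5, 26.2 and 24.6 CPM with kaempferol against 19.8, 17.4 and 17.1 CPM in control (0.43 ± 0.0897, adjusted p = 0.00182 by edgeR), and Rps6kb2, for the second S6 kinase, had 18.5 to 20.7 CPM with kaempferol against 24.6 to 26.3 CPM in control (-0.38 ± 0.0805, adjusted p = 0.00228 by edgeR).

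In the remaining lists the calls are read against the 24.0% of all genes tested that passed. Of 15 genes of termination, recycling and rescue 1 passed, Gspt1 for the release factor eRF3, with a log2 fold change of -0.19. Of 11 mitochondrial translation factor genes Mtif2 (0.22) and Gfm2 (0.19) were higher and Mrrf, for the ribosome recycling factor, was lower (-0.31), and of 22 genes of aminoacyl-tRNA synthetases and their partners Sars was higher (0.15) and Vars lower (-0.27). Of 80 cytosolic ribosomal protein genes 3 were higher and 6 lower, 11.2% of them, with a median of -0.06. Among the ribosomal genes that passed, Rps27l (0.45), Rpl21 (-0.55), Rpl30 (-0.29) and Rps27a (0.72) had the largest changes, and 1 kaempferol library of Rps27a, at 239 CPM, lay with the controls of 236 to 255 CPM while the other two had 509 and 466 CPM.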

How the data were processed

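The deposited values are raw counts, whole numbers of reads for each gene in 6 libraries. In the submitters' processing notes fastp, the aligner HISAT2 2.0.5 and the counter featureCounts 1.5.0-p3 stand beside StringTie 1.3.3b and DESeq2 1.20.0, all on mm10, and strand use in counting is not given in the sources used here. Reads were not aligned again. In R 4.3.3, edgeR 4.0.16 kept 14558 genes (filterByExpr, minimum count 10, minimum total count 15), with TMM factors of 0.985 to 1.012, and fitted kaempferol vs. control by the quasi-likelihood test, Benjamini-Hochberg adjusted over all of them. SE and 95% intervals are those the test implies, and CPM uses TMM-scaled totals. The members and lists were chosen with earlier results of these data known, so no list has a test. Members named with values per library were those that passed with a mean of at least 5 CPM, the 12 largest changes at most (11 existed), and a set list of core factors, and of each pathway list up to 4 called genes. Other members have fold changes or ranges, except Eif5a2, Eif1b and Eef1g, whose values per library were added after they were seen.

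The alternatives changed the tool (DESeq2 1.42.0), the scaling (RLE, upper quartile), the filter (none, or a minimum of 10 counts per library, or protein-coding genes alone), the test (likelihood ratio), the threshold (0.01) and the design (replicate block), left out each library in turn, or added pseudogenes to their parents. Copies were searched with blastn 2.17.0 among GENCODE transcripts (at least 95% identity over 100 bases and 50% of the shorter transcript). In simulated counts of 14558 genes, few were given a change: 67 by 1.25-fold, 67 by 1.5-fold and 66 by 2-fold. The test found 42, 62 and 66 of these (62.7%, 92.5% and 100%), and 16 of its 186 calls fell on unchanged genes. Changes under 1.25-fold were not simulated, and every member that passed changed by less than that. The real data also had 3487 calls, so the adjustment acted at a different unadjusted p. These rates therefore do not give the power at the size of the members' changes. Library totals of 16575790 to 18625272 counts set the precision, and floors cover counting error only. Genes overlapping on the opposite strand include Mettl1 (100 bases, up to 363 counts) at Eef1akmt3 and Spg11 (1107 bases, up to 1055 counts) at Eif3j1. Others are Banf1 (428 bases, up to 3247 counts) at Eif1ad and Rev1 (1643 bases, up to 612 counts) at Eif5b. Reads in such overlaps cannot be assigned.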

Additional observations from a re-analysis of the deposited data

How the results depend on the processing

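Over the 16 alternatives no member that passed the test changed sign. Of the named members that did not pass, Eif6 had a log2 fold change of 0.01 without kaempferol replicate 3 (-0.06 with all libraries) and Eef1a1 had -0.0047 without kaempferol replicate 2 (0.0092 with all). Over all genes, 953 were higher and 1026 lower at an adjusted p under 0.01, against 1647 and 1840 at 0.05, and leaving out single libraries gave 1209 to 1546 higher and 1210 to 1628 lower (1210 without control replicate 1). The 10 downregulated translation factor genes became 4 with upper-quartile factors, 1 at an adjusted p under 0.01 and 2 to 7 when a library was left out. The 1 upregulated gene became 3 with upper-quartile factors, 0 with DESeq2, without a filter and at an adjusted p under 0.01, and 0 to 1 when a library was left out. With a library left out, Eef1d (without kaempferol replicate 1) and Eif1b (without control replicate 3) were called lower and Eef1g (without kaempferol replicate 3) higher, none of them called with all 6. The cause of these shifts was not tested, and leaving out a library also leaves fewer libraries.

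With the replicate number as a block, 3 members were lower (Eif2s3x, Eif4a3 and Eif5a) and 0 higher, of 1337 genes higher and 1413 lower in all. Same-numbered libraries did not deviate together (correlations of -0.061 to -0.025 for the same number and -0.0095 to 0.057 for others). With 3 libraries per group, these correlations cannot tell whether same-numbered libraries shared a culture or a batch.

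The share of Eif5a2 in its pair differed by 0.231 percentage points (kaempferol minus control) per kb and by 0.476 with CPM uncorrected for length, in the same direction. Depth limits the rarest members, of which 3 counts correspond to 0.161 to 0.181 CPM.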
